A study of Homo sapiens with 6 samples.

Results

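The chemokines of SW480 colon cancer cells described here are *CXCL1*, *CXCL2*, *CXCL3*, *CXCL5*, *CXCL8*, *CXCL10*, *CXCL11*, *CXCL16*, *CCL5* and *CCL20*. These genes were chosen by symbol, with earlier results of these data known, and are 10 of the 19225 symbols in the expression table. SW480, an epithelial line from a human colon carcinoma that carries mutant p53, was the source of every library. The first group, of 3 control libraries, and the second, of 3 libraries from cells transiently transfected with plasmids encoding MDM4, each carry replicate numbers 1 to 3. All 6 libraries are labelled as plasmid transfected, and what plasmid the control cells received is not stated in the labels. The word "exercised" stands for the second group in the labels. As no other group besides control exists, it was taken to be MDM4. MDM4 is best known as a partner of MDM2 that holds p53 in check, so a line without normal p53 was used to look at MDM4 apart from p53. The promoter of the plasmid and whether the numbered libraries came from separate cultures are not given in the sources used here, so p-values measure the spread between these libraries, which may be technical. Expression is in FPKM, that is, fragments counted on a gene per kilobase of its length and scaled to the fragments counted in the library, a unit that allows levels of different genes to be set side by side.

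Chemokines are small secreted proteins that steer leukocytes along a gradient. CXCL1, CXCL2, CXCL3, CXCL5 and CXCL8 carry the glutamate-leucine-arginine (ELR) motif before the CXC cysteines, bind the receptor CXCR2 and draw neutrophils, and tumour epithelium is a known source of them. CXCL10 and CXCL11 lack the motif, are induced by interferons and draw activated T cells and NK cells through CXCR3. CXCL16 is made as a transmembrane protein with a chemokine head, is shed by ADAM10 and ADAM17, and binds CXCR6. CCL5 draws T cells and monocytes and is induced by both NF-κB and interferon regulatory factors, and CCL20 binds CCR6 on dendritic cells, B cells and Th17 cells. NF-κB is the factor best known for switching on the ELR chemokines and CCL20.

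RefSeq promoters (GRCh38.p14, 300 bases around the gene start) were found for 8 of the 10 genes. Stretches around the NF-κB-type site are shown because nearly all of the 8 carry it. Capitals mark GGAATTTCC on either strand, in *CCL20* the NF-κB consensus, and in *CXCL10* also GAAANNGAAA, an interferon response element core. All are written 5′ to 3′ on the strand of the gene.
*CXCL1*, chr4:73869290-73869349, plus strand: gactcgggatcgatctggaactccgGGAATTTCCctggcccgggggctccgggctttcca
*CXCL2*, chr4:74099238-74099297, minus strand: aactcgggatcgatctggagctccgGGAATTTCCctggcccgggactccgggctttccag
*CXCL3*, chr4:74038733-74038792, minus strand: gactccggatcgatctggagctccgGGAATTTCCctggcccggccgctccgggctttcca
*CXCL8*, chr4:73740453-73740512, plus strand: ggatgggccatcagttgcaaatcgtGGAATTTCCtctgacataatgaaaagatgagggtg
*CXCL5*, chr4:73998733-73998792, minus strand: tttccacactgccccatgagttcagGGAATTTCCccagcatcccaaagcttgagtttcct
*CXCL10*, chr4:76023639-76023722, minus strand: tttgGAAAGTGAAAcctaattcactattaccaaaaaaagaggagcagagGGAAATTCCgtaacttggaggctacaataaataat
*CXCL11*, chr4:76036111-76036170, minus strand: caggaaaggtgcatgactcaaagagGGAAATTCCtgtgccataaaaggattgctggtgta
*CCL20*, chr2:227813738-227813797, plus strand: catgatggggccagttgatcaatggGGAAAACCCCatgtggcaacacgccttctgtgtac

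GGAATTTCC, searched on both strands, was in 7 of the 8 promoters, against 0.461% of 35116 RefSeq promoters of 300 bases. The NF-κB consensus, which overlaps it in most of these genes, was in 7 of 8 against 5.91% of all promoters. GAAANNGAAA was in *CXCL10* and in 3.57% of all promoters. The motif TGANTCA, the AP-1 site, was in *CXCL8* and *CXCL11* and in 7.71% of all promoters. Over the 60 bases centred on the site, *CXCL1* and *CXCL3* were identical at 93.3% of positions, *CXCL1* and *CXCL2* at 80%, and *CXCL1* and *CXCL8* at 40%. A match is a description of the letters and shows no binding. *CXCL5* and *CXCL11* carry the same letters as *CXCL1* and *CXCL8* and were at low levels in these cells.

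Between 32929703 and 44570049 reads per library could be recovered from the steps of the FPKM values, so *CXCL2* at 10.4 FPKM in control replicate 3 rests on 503 reads. The transfected gene *MDM4* had 6.35, 7.09 and 5.13 FPKM in the controls against 188, 185 and 56.3 in the MDM4 libraries. The 2 groups did not overlap, and MDM4 replicate 3 had 0.301 of the mean of the other MDM4 libraries. Replicate 3 stood apart from replicates 1 and 2 in both groups, so each result is also given by replicate number and over replicates 1 and 2 alone. This split was chosen with earlier results of these data known. The libraries held epithelial RNA, with the markers *EPCAM*, *KRT8*, *KRT18* and *KRT19* high and a summed level of 10 epithelial markers between 4221 and 4902 FPKM. *CDX1*, *LGR5* and *KRT20*, also intestinal markers, were near 0. The summed level of 7 macrophage markers was 0.882 to 1.23 FPKM in the control and 0.685 to 1.15 FPKM in the MDM4 libraries, and that of 5 T or NK cell markers 1.06 to 1.65 and 0.924 to 1.70, with *CD3D* at 0 in every library. *PTPRC*, the pan-leukocyte marker, was at 0.0142 FPKM or less, while *CD14* was at 0.308 to 0.813 FPKM and *CD8A* at 0.355 to 0.829 FPKM, levels near that of *CCL5*. The part of such cells in the results was not tested.

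In the control cells, the neutrophil attractant *CXCL1* was the most abundant of the 10 transcripts, at 37.0 ± 1.39 FPKM (SD, n = 3), followed by *CXCL16* at 32.5 ± 2.39. *CXCL8* stood at 17.1 ± 5.77, *CXCL3* at 13.5 ± 2.45 and *CXCL2* at 10.7 ± 0.360, and the ranges of these neighbours in the order overlapped. *CCL20* followed at 7.07 ± 0.633 FPKM, below each control value of *CXCL2*. The other genes were at low levels, with *CCL5* at 0.915 ± 0.790, *CXCL10* at 0.270 ± 0.277, *CXCL5* at 0.244 ± 0.06003 and *CXCL11* at 0.117 ± 0.0535 FPKM, and the ranges of neighbours in the order overlapped except between *CXCL5* and *CXCL11*. In the whole set of 48 chemokine ligands, 47 were in the table, 13 of them at 0 in every library and 12 with a mean of at least 1 FPKM. *CXCL1* and *CXCL16* were the highest ligands by the mean over all libraries, and the only ligand that stood between these and *CXCL8* was *CCL2*, which draws monocytes, with a mean of 24.4 FPKM. In MDM4 replicates 1 and 2, *CXCL1* (23.3 and 23.0) lay below *CXCL16* (31.1 and 33.3), and in MDM4 replicate 2 it was level with *CCL2* (23.0).

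**Figure D1:**
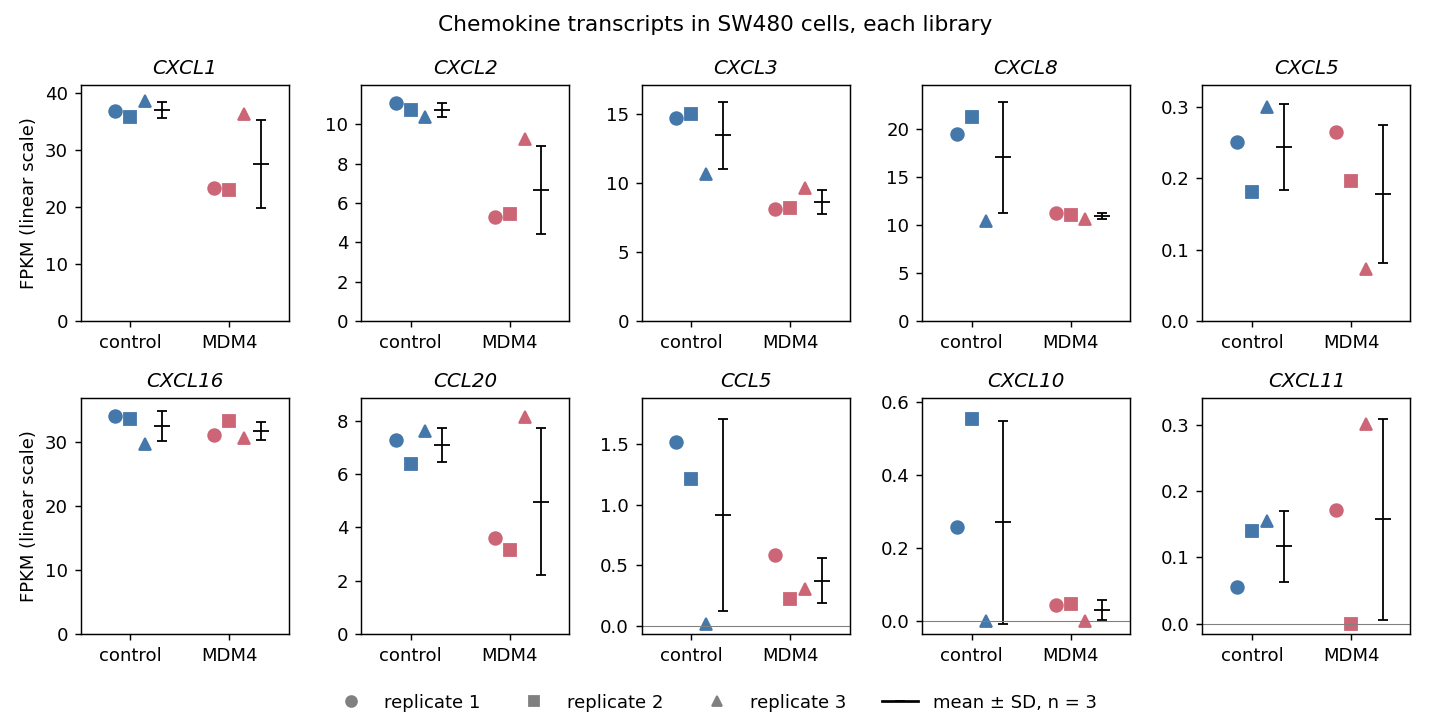
FPKM (linear axis, starting at or just below 0) of the 10 chemokines in each control and MDM4 library, with symbols for replicate numbers and bars for mean ± SD of 3 libraries. In *CXCL1*, *CXCL2* and *CCL20* the triangle of MDM4 replicate 3 lies far above the other MDM4 libraries, whereas in *CXCL8*, *CXCL3* and *CCL5* the triangle of control replicate 3 lies below the other controls, and *CXCL16* lies between 29.7 and 34.1 FPKM throughout.

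Across all 6 libraries no chemokine was called different between MDM4 and control. Of the 10, 7 passed the filter on low values (a mean of at least 0.5 FPKM), and of these 0 had an adjusted p under 0.05 by limma, against 0% of the 12884 genes tested. The transfected gene *MDM4* itself, with a log2 fold change of 4.33 ± 0.43 (SE), was not called in this fit (limma, adjusted p = 0.161). The fit could thus miss large differences, and the lack of calls does not show that the chemokines were unchanged. At an unadjusted p under 0.05 there were 3 of 7, *CXCL1*, *CXCL2* and *CXCL3*, against 1.72% of tested genes. limma-voom on the recovered reads likewise called 0. With the replicate number as a block, 0 of 7 were called, against 0.0155% of genes, and 5 of 7 had an unadjusted p under 0.05, against 12.6%. All 7 had a negative log2 fold change, with a median of -0.57, where the median of all tested genes was -0.01.

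For 5 of the 7, *CXCL1*, *CXCL2*, *CXCL3*, *CXCL8* and *CCL20*, the differences were wider in replicates 1 and 2 than in replicate 3. In the first of these pairs of libraries all 7 tested chemokines were lower with MDM4, with a median difference of -0.85 in log2(FPKM + 0.1), and in the second all 7 with a median of -0.94. In the third pair 3 of 7 were lower and the median was 0.02. The medians of all tested genes were -0.023, 0.0016 and -0.0043 in the same order. Of the 7 chemokines, *CCL5* passed the filter only through its high values in control replicates 1 and 2. Over replicates 1 and 2 alone (2 libraries a group), *CXCL1*, *CXCL2*, *CXCL3*, *CXCL8* and *CCL20* were lower with MDM4 at an adjusted p under 0.05 by limma, 5 of 7 against 0.512% of tested genes in that direction. That fit leaves out the third pair, where the median was 0.02. Its p-values, here and below, make no allowance for genes and a split chosen with earlier results known. *CXCL1*, *CXCL2* and *CXCL3* can also share reads, so the 5 calls are not independent and the share is no test of the list. The 5 calls were lost without the filter, since with all 17189 genes above 0 in the fit 0 of the 10 chemokines were called, and the adjusted p of these 5 was then 0.256 to 0.508. Without a trend in the variance 2 were called, *CXCL2* and *CXCL3*.

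**Figure D2:**
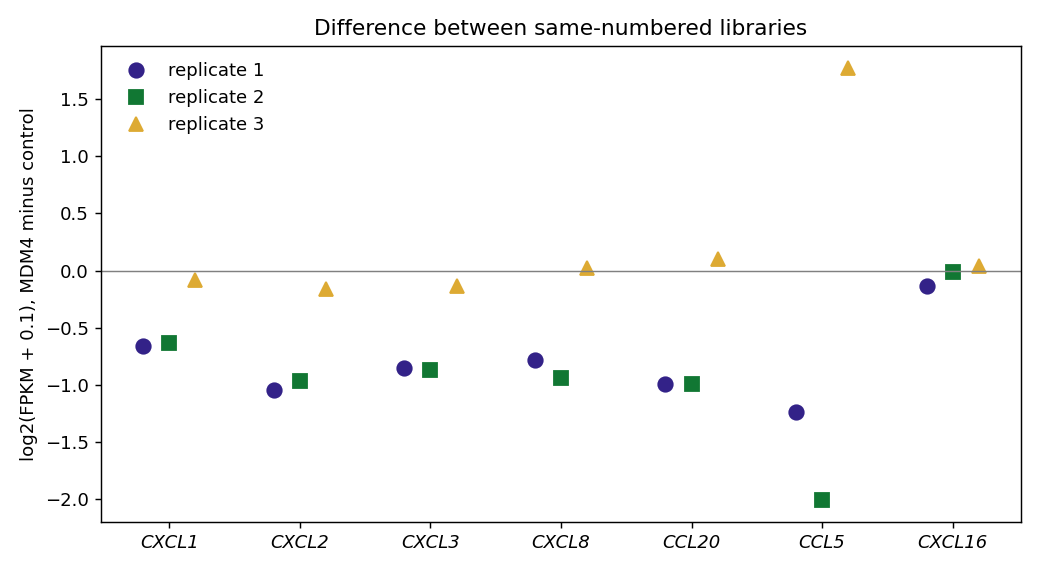
Difference in log2(FPKM + 0.1), MDM4 minus control, between libraries of the same replicate number for the 7 tested chemokines. For *CXCL1*, *CXCL2*, *CXCL3*, *CXCL8* and *CCL20* replicates 1 and 2 lie between -1.05 and -0.64 and replicate 3 between -0.16 and 0.10, *CCL5* has its replicate 3 at 1.78, and *CXCL16* stays near 0.

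The growth-regulated oncogenes *CXCL1*, *CXCL2* and *CXCL3* are close paralogs. *CXCL1* was at 36.8, 35.8 and 38.5 FPKM in replicates 1 to 3 of the control and at 23.3, 23.0 and 36.4 in MDM4 replicates 1 to 3. MDM4 replicates 1 and 2 lay below every control, while MDM4 replicate 3 fell within the range of the controls. The log2 fold change was -0.46 ± 0.17 (SE, adjusted p = 0.9999) over all libraries and -0.65 ± 0.079 (adjusted p = 0.00174), or 1.57-fold lower, over replicates 1 and 2. *CXCL2* was at 11.1, 10.7 and 10.4 FPKM in the control and at 5.31, 5.45 and 9.27 in the MDM4 libraries. Here the groups did not overlap, but MDM4 replicate 3 was much nearer the controls than its fellows. Its log2 fold change was -0.72 ± 0.21 (adjusted p = 0.9999) over all libraries and -1.01 ± 0.11 (adjusted p = 5.28e-04), or 2.01-fold lower, over replicates 1 and 2. *CXCL3* was at 14.7, 15.1 and 10.7 FPKM in the control and at 8.13, 8.20 and 9.69 in the MDM4 libraries. Its groups did not overlap either, with the lowest control and the highest MDM4 library both in replicate 3. The log2 fold change was -0.62 ± 0.16 (adjusted p = 0.9999) over all libraries and -0.86 ± 0.096 (adjusted p = 8.36e-04), or 1.81-fold lower, over replicates 1 and 2. *CXCL2* and *CXCL3* were thus 2 of 7 tested chemokines whose MDM4 values all lay below the controls, against 3.76% of tested genes, and the exact two-sided permutation p of each was 0.1, the smallest that 3 against 3 libraries allow.

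These 3 genes can share reads. Their coding sequences of 324 bases are 93.5% identical between *CXCL1* and *CXCL2*, 90.7% between *CXCL1* and *CXCL3* and 94.4% between *CXCL2* and *CXCL3*, with shared runs of up to 97 bases. Of all 50-base windows in the longest coding transcript of each, 5.73% of *CXCL1*, 9.24% of *CXCL2* and 5.26% of *CXCL3* occur unchanged in another ELR chemokine. How reads that match more than 1 gene were counted is not given in the sources used here, so the split between the 3 is uncertain. *CXCL1* was 2.50, 2.38 and 3.61 times *CXCL3* in control replicates 1 to 3 and 2.86, 2.80 and 3.76 times in the MDM4 libraries, so the ratio was higher in replicate 3 of both groups. *CXCL1* was 3.32, 3.33 and 3.71 times *CXCL2* in the control and 4.38, 4.22 and 3.93 times in the MDM4 libraries, where replicate 3 was the lowest.

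*CXCL8*, or interleukin 8, was at 19.5, 21.2 and 10.5 FPKM in replicates 1 to 3 of the control and at 11.3, 11.03 and 10.6 in MDM4 replicates 1 to 3. The 3 MDM4 libraries were alike, and control replicate 3 was as low as they were. The log2 fold change was -0.57 ± 0.25 (adjusted p = 0.9999) over all libraries and -0.86 ± 0.093 (adjusted p = 6.77e-04), or 1.82-fold lower, over replicates 1 and 2. Leaving out control replicate 3 alone gave -0.88 with an adjusted p of 0.0305 by limma, and *CXCL8* was the only chemokine called when a single library was left out. In that fit 21 of the 12884 tested genes were called, 19 of them lower with MDM4. The library left out was the control that was as low as the MDM4 libraries. *CXCL5*, the fifth ELR ligand among the 10, was at 0.252, 0.180 and 0.2997 FPKM in the control and 0.265, 0.197 and 0.0730 in the MDM4 libraries. These values rest on 6 to 30 reads each, and the gene was not tested. In replicate 3 its MDM4 to control ratio was 0.244 with an exact 95% interval of 0.0829 to 0.595, which covers counting error only, and in replicates 1 and 2 the ratio was 1.053 and 1.09 with intervals that include 1.

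Summed, the 5 ELR transcripts amounted to 82.4, 83.0 and 70.3 FPKM in replicates 1 to 3 of the control and to 48.3, 47.9 and 66.1 FPKM in the MDM4 libraries. The difference, MDM4 against control, was -41.4%, -42.3% and -6.09% in the order of the replicate numbers. The share of *CXCL8* in this pool differed more between replicate 3 and the other replicates than between the groups. *CXCL8* made up 23.6%, 25.6% and 14.9% of the pool in the control and 23.4%, 23.0% and 16.1% in the MDM4 libraries. In replicate 3 of either group *CXCL1* thus outnumbered *CXCL8* by a wider margin, at a ratio of 3.68 and 3.42 against 1.68 to 2.08 elsewhere.

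The small difference in replicate 3 arose differently among the chemokines. *CXCL1*, *CXCL2* and *CCL20* kept their level in control replicate 3, at 1.06, 0.951 and 1.11 times the mean of control replicates 1 and 2, and MDM4 replicate 3 was at 1.57, 1.72 and 2.41 times the mean of the other MDM4 libraries. *CXCL8* did the opposite, with control replicate 3 at 0.515 times the other controls and MDM4 replicate 3 at 0.953 times its fellows. *CXCL3* lay between, at 0.716 in the control and 1.19 in the MDM4 group. The distance of replicate 3 was also taken over the 12884 tested genes. Between their 5% and 95% quantiles, replicate 3 lay between -0.50 and 0.77 (log2) from the other controls and between -0.48 and 0.83 from the other MDM4 libraries, ranges that hold *CXCL1*, *CXCL2* and *CXCL3* in both groups but neither *CXCL8* and *CCL5* in the control nor *CCL20* in the MDM4 libraries. The term for the difference of the MDM4 effect in replicate 3 had an adjusted p under 0.05 in 0 of 7 chemokines by limma, against 0.194% of tested genes, and an unadjusted p under 0.05 in 6 of 7, against 2.27%. Of these 6, *CCL5* passed the filter only through its high values in control replicates 1 and 2. The same values enter its term, so *CCL5* adds no support here. The lowest adjusted p of the term was 0.104, in *CXCL8*. The term rests on 1 pair of libraries, and the part that the lower *MDM4* level of MDM4 replicate 3 had in it was not tested.

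**Figure D3:**
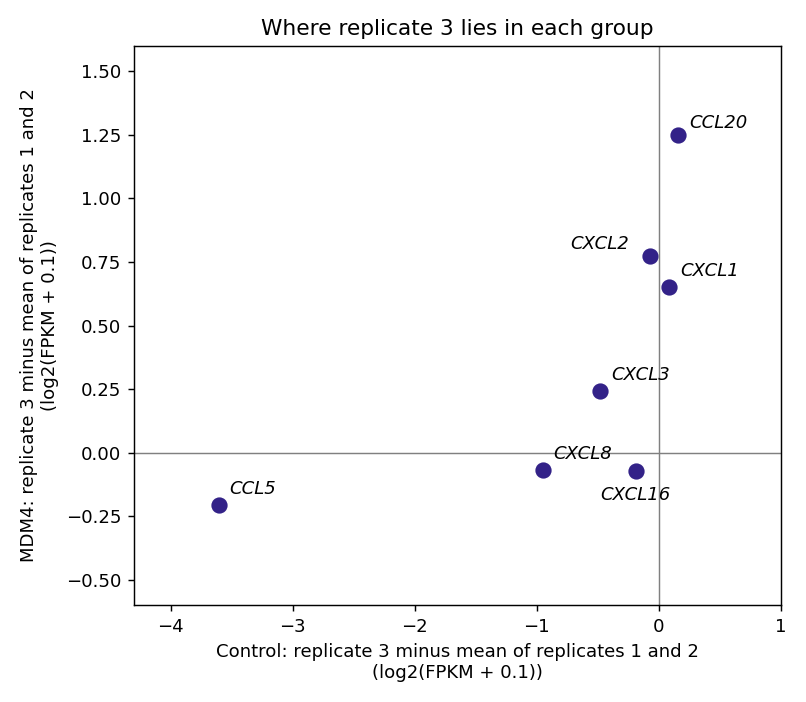
Distance of replicate 3 from the mean of replicates 1 and 2 on the log2(FPKM + 0.1) scale, for the control libraries on the horizontal axis and the MDM4 libraries on the vertical axis, 1 point for each tested chemokine. *CCL20*, *CXCL2* and *CXCL1* lie high near the vertical zero line (1.25, 0.77 and 0.65 in the MDM4 libraries), *CXCL8* and *CCL5* lie far to the left near the horizontal zero line (-0.95 and -3.61 in the control), and *CXCL3* lies between.

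The interferon-inducible CXCR3 ligands were barely expressed and fell below the filter on low values. *CXCL10* was at 0.257, 0.554 and 0 FPKM in replicates 1 to 3 of the control and at 0.0452, 0.0474 and 0 in the MDM4 libraries. These stand for 14, 24 and 0 reads in the control and 2, 2 and 0 in the MDM4 libraries, taking the read worth that fits the annotated transcript length. The MDM4 to control ratio was 0.176 (exact 95% interval 0.0194 to 0.764) in replicate 1 and 0.0856 (0.00980 to 0.345) in replicate 2, and replicate 3 had no read in either group. Both intervals depend on the read worth taken, as the smallest step would give fewer reads and wider intervals. Whether these would include 1 was not tested. With no filter on low values its log2 fold change was -1.15 ± 0.62 over all libraries (adjusted p = 0.9999) and -1.72 ± 0.35 over replicates 1 and 2 (adjusted p = 0.639). *CXCL11* was at 0.0558, 0.140 and 0.155 FPKM in the control and at 0.171, 0 and 0.302 in the MDM4 libraries, on at most 16 reads, and its differences had no common direction. *CXCL10* and *CXCL11* lie within *ART3* on the opposite strand, but *ART3* itself was at 0 in every library.

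*CXCL16* was the one abundant chemokine at nearly the same level throughout. It was at 34.1, 33.6 and 29.7 FPKM in replicates 1 to 3 of the control and at 31.1, 33.3 and 30.6 in the MDM4 libraries, on at least 1911 reads each. The groups overlapped, and the lowest library of each group was replicate 3. The log2 fold change over all libraries was -0.04, with a 95% interval of -0.23 to 0.16. Over replicates 1 and 2 it was -0.07, with an interval of -0.25 to 0.10 (limma, adjusted p = 0.842). Its share of the summed 10 chemokines was 27.2%, 26.9% and 27.6% in the control and 37.2%, 39.3% and 29.03% in the MDM4 libraries. *ADAM10*, a protease that sheds CXCL16 from the membrane, was at 26.8, 31.4 and 29.9 FPKM in the control and 33.5, 34.3 and 34.5 in the MDM4 libraries. Its groups did not overlap, with MDM4 higher, as in 399 of the 12884 tested genes, and its adjusted p by limma was 0.9999. *ADAM17*, the other sheddase, was at 18.7 to 22.5 and 20.8 to 23.7 FPKM. Of 12 proteases that cut chemokines, 9 were tested and 0 were called in either direction over all libraries or over replicates 1 and 2. The receptor *CXCR6* was at 1.91, 2.17 and 0.853 FPKM in the control and 1.56, 1.43 and 1.10 in the MDM4 libraries.

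Of the CC chemokines, *CCL20*, the ligand of CCR6, was at 7.26, 6.37 and 7.59 FPKM in replicates 1 to 3 of the control and at 3.59, 3.15 and 8.13 in MDM4 replicates 1 to 3. MDM4 replicates 1 and 2 lay below every control, and MDM4 replicate 3 above every control. The log2 fold change was -0.63 ± 0.33 (adjusted p = 0.9999) over all libraries and -0.99 ± 0.13 (adjusted p = 0.00340), or 1.99-fold lower, over replicates 1 and 2. *CCL5*, a T cell and monocyte attractant, was at 1.51, 1.21 and 0.0196 FPKM in the control and at 0.583, 0.227 and 0.310 in the MDM4 libraries. Its reads numbered 86, 55 and 1 in the control and 27, 10 and 13 in the MDM4 libraries, so that control replicate 3 was the lowest of all and the other 2 controls the highest. The MDM4 to control ratio was 0.386 (exact 95% interval 0.241 to 0.6004) in replicate 1, 0.187 (0.0849 to 0.370) in replicate 2 and 15.8 (2.38 to 673) in replicate 3. The log2 fold change was -0.49 ± 0.94 (adjusted p = 0.9999) over all libraries and -1.62 ± 0.33 (adjusted p = 0.0710) over replicates 1 and 2. There *CCL5* was called in 3 of 9 settings, with the replicate block (7.88e-07), pseudocount 1 (0.0381) and TPM scaling (0.0496), by limma's adjusted p. With the block, so few libraries leave very little to estimate the residual spread of *CCL5* itself. The value of 7.88e-07 thus rests on variance borrowed across genes. The differences of *CCL5* in log2(FPKM + 0.1) were -1.24 in replicate 1 and -2.01 in replicate 2. *CCL5* passed the filter only through control replicates 1 and 2, as the mean of the MDM4 libraries was 0.373 FPKM. Without control replicate 1 its log2 fold change was 0.18, and without control replicate 2 it was 0.04.

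Of the ligands outside the 10, 2 of 9 CXC and 6 of 28 CC, CX3C and XC ligands in the table were tested, and 0 were called over all libraries. Over replicates 1 and 2, *CCL2* was lower with MDM4 (log2 fold change -0.60 ± 0.10, limma, adjusted p = 0.0199), at 32.9, 30.6 and 18.4 FPKM in the control and 18.9, 23.0 and 22.6 in the MDM4 libraries, with control replicate 3 as low as the MDM4 libraries. It was the only ligand outside the 10 called in that fit, where 0.512% of tested genes were called lower. *CCL24*, *CCL28*, *CX3CL1*, *CCL7* and *CXCL6*, all with means of at least 1 FPKM, were not called. Of 22 chemokine receptors 6 were tested and 0 were called. *CXCR4*, the receptor of CXCL12, was at 18.4 to 23.7 FPKM in the control and 18.9 to 20.4 in the MDM4 libraries, and *CXCR2*, through which ELR chemokines act, at 0.517 to 0.701 and 0.377 to 0.525.

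Regulators of these chemokines were counted as lists, and over all libraries 0 members of any of them were called. Of 15 NF-κB subunits and inhibitors 15 were tested and 0 were called over replicates 1 and 2, with a median log2 fold change of -0.14. *RELA*, the subunit that activates most of these promoters, was at 44.6, 41.4 and 38.5 FPKM in the control and 40.0, 40.7 and 38.3 in the MDM4 libraries. *TNFAIP3*, an NF-κB target that feeds back on the pathway, came nearest to a call, at -0.57 ± 0.11 (adjusted p = 0.0541), with 7.44, 7.76 and 6.07 FPKM in the control and 5.06, 5.09 and 7.18 in the MDM4 libraries. Of 9 AP-1 and C/EBP factors, *ATF3*, a stress-induced factor, was called lower over replicates 1 and 2 (-0.75 ± 0.11, limma, adjusted p = 0.00636). It was the only 1 called, where 0.512% of tested genes were called lower. Its values were 9.17, 9.49 and 7.51 FPKM in the control and 5.64, 5.39 and 6.70 in the MDM4 libraries. These groups did not overlap, with MDM4 lower, as in 3.76% of tested genes.

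Among the interferon regulatory factors, which act on *CXCL10*, *CXCL11* and *CCL5*, *IRF9* and *IRF7* were called lower over replicates 1 and 2, and *IRF1*, *IRF2* and *IRF3* were not called. Over all tested genes, 0.512% were called lower in that fit. *IRF9*, the DNA-binding subunit of the ISGF3 complex, was at 19.6, 17.2 and 6.98 FPKM in the control and 3.80, 4.76 and 7.12 in the MDM4 libraries (-2.08 ± 0.13, adjusted p = 3.88e-06). *IRF7*, which amplifies interferon transcription, was at 12.3, 10.1 and 6.44 FPKM in the control and 4.90, 4.74 and 6.15 in the MDM4 libraries (adjusted p = 4.50e-04). In both, control replicate 3 was far below the other controls, as in *CXCL8* and *CCL5*. Of 16 cytokines that can induce these chemokines 7 were tested. Of these, *IFNL2* and *IFNL3*, type III interferons named here after their values were seen, were called lower over replicates 1 and 2, against 0.512% of tested genes. Both passed the filter on low values only through control replicates 1 and 2. *IFNL2* had 43, 55 and 0 reads in the control and 0, 0 and 1 in the MDM4 libraries, and *IFNL3* had 57, 51 and 0 against 2, 0 and 4, so both had 0 reads in control replicate 3. *TNF*, an inducer of the ELR chemokines and *CCL20*, was at 3.56, 3.51 and 4.86 FPKM in the control and at 2.85, 1.598 and 4.98 in the MDM4 libraries, not called (adjusted p = 0.387 over replicates 1 and 2). Of 16 receptors of these cytokines and 9 factors that decay or stabilise chemokine mRNA, such as *ZFP36* and *ELAVL1*, 0 were called.

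Of the 10 genes, 7 lie on chromosome 4. In GENCODE 29 on GRCh38, the genes from *CXCL8* to *CXCL2* span 358788 bases (chr4:73740506-74099293), with *CXCL6*, *CXCL1* and, on the minus strand, *CXCL5*, *CXCL3* and *CXCL2* in that order, while *CXCL10* (chr4:76021117-76023497) and *CXCL11* (chr4:76033682-76041415) lie in the smaller *CXCL9* to *CXCL11* cluster. *CXCL16* (chr17:4733526-4739922) and *CCL5* (chr17:35871491-35880793) are on chromosome 17 and *CCL20* (chr2:227805739-227817564) is on chromosome 2. Within the larger cluster, *CXCL6*, between *CXCL8* and *CXCL1*, had a log2 fold change of -0.06 ± 0.25 over replicates 1 and 2 (adjusted p = 0.965), and *PF4* and *PPBP*, platelet chemokines, were at 0 in every library. Of the 8 nearest non-chemokine protein-coding genes on either side, 3 were tested. *MTHFD2L*, *EREG* and *AREG*, the last 2 encoding ligands of the EGF receptor, had log2 fold changes of 0.06 to 0.23 and 0 were called. Of the 8 around the *CXCL9* to *CXCL11* cluster 5 were tested, with 0 called and log2 fold changes of -0.04 to 0.20.

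**Figure D4:**
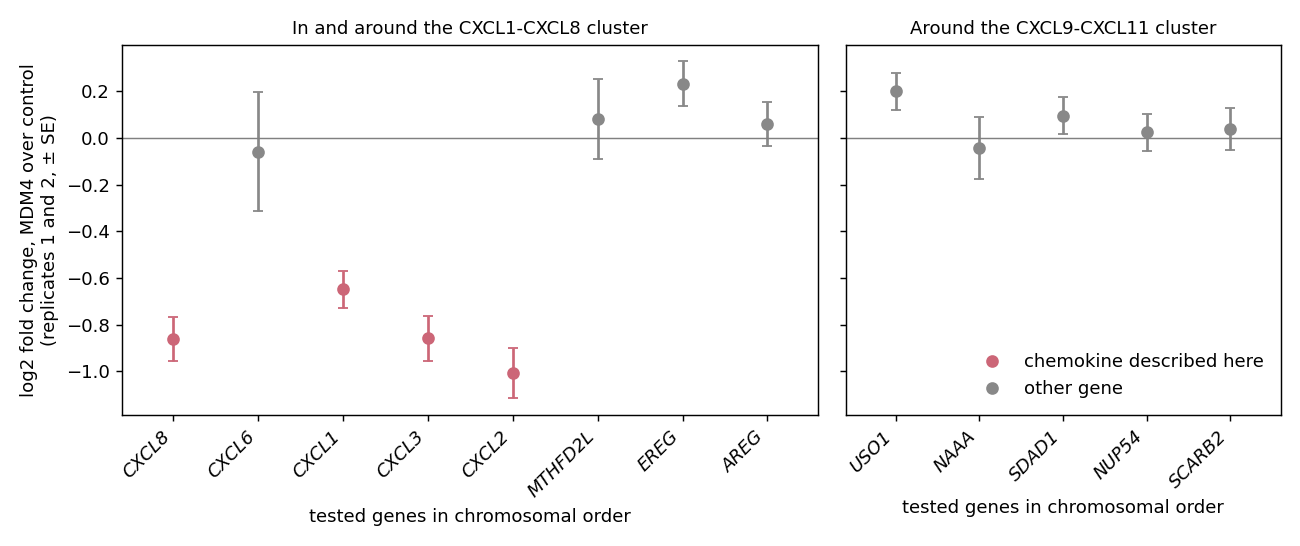
Log2 fold change, MDM4 over control, in replicates 1 and 2 with its SE (limma, 2 libraries a group) for tested genes in chromosomal order, in and around the CXCL1-CXCL8 cluster (left) and around the CXCL9-CXCL11 cluster (right). *CXCL8*, *CXCL1*, *CXCL3* and *CXCL2* lie between -1.01 and -0.65, while *CXCL6* and the flanking genes lie between -0.06 and 0.23.

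By likeness of log2(FPKM + 0.1) over the 6 libraries, the 5 genes nearest to *CXCL8* among 12022 genes of at least 1 FPKM were *ISG15*, *ADAR*, *ST7L*, *HERC6* and *DDX60*, with Pearson's r of 0.993 to 0.982. *ISG15*, a ubiquitin-like protein made in response to interferon, was at 232, 240 and 92.7 FPKM in replicates 1 to 3 of the control and at 89.8, 95.7 and 86.1 in the MDM4 libraries. For *CXCL10* the 4 nearest were *CHDH*, *LAP3*, *DTX3L* and *CXCR4*, with r of 0.988 to 0.976. These values describe 6 libraries in which control replicates 1 and 2 stood above the rest, and with so few points many genes come close to a given pattern.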

How the data were processed

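Poly(A) RNA of SW480 cells, bound to oligo(dT) beads, was sequenced on an Illumina HiSeq instrument in 3 control and 3 MDM4 libraries, grouped by their labels. The table's columns carry a letter and a replicate number. The authors deposited FPKM values for 19225 symbols, and the aligner, annotation and counting rule are not given in the sources used here. In each library a gene's FPKM is a whole multiple of 1 step, which gave whole reads for 17189 of 17189 genes above 0 (100%). Where a gene had under 50 reads, the multiple nearest the annotated transcript length was taken. Recovered reads served for depth, reads per gene and voom. Kits that do not mark strand leave antisense reads unresolved.

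limma 3.58.1 in R 4.3.3 (eBayes with trend, no block) was run on log2(FPKM + 0.1) of the 12884 genes whose mean reached 0.5 FPKM, and Benjamini-Hochberg adjustment covered all of them. Fold changes are on this scale, which understates changes of low genes. Single values used exact two-sided permutation tests (scipy 1.17.1), and intervals of read ratios are exact and cover counting error only. Deviations from the group mean, taken across genes, correlated at 0.458, 0.451 and 0.783 in same-numbered libraries, each over 0.1, which was the rule for taking the numbers as pairs. Control 1 with MDM4 2 (0.462) and control 2 with MDM4 1 (0.439) correlated as well, so the values set replicate 3 apart and do not tell 1 from 2, and the replicate block is given beside the results. No pair of libraries held the same values. The recovery of reads and the limma fit were tested on simulated data. For limma, the simulated spread was taken from replicates 1 and 2 and held no shift of replicate 3. That test therefore does not show how the fit behaves where replicate 3 stands apart.

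The 10 genes, the other lists and the split by replicate were chosen with earlier results of these data known. Named genes are the 10, *MDM4*, list genes averaging 1 FPKM or more, the 5 genes most like *CXCL8* and *CXCL10*, and the 4 nearest protein-coding genes on each side of both clusters. Some genes of these lists are not reported here. Alternatives were other pseudocounts, filters, scalings, moderation, the block, a term for replicate 3, voom and each library left out. Fits over replicates 1 and 2 with a further change were added after the data were seen. Promoters are from RefSeq (GRCh38.p14) and gene positions from GENCODE 29 (GRCh38).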

Additional observations from a re-analysis of the deposited data

How the results depend on the processing

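Over all 6 libraries no chemokine was called under any other pseudocount, filter, scaling or moderation, nor with the replicate block, nor with voom. Members called ranged from 0 to 1 when each library was left out in turn, the 1 being *CXCL8* without control replicate 3, and genes called from 0 to 21. Of the 7 tested chemokines, 2 to 5 then lay below the controls without overlap, beside 5.09% to 16.3% of all tested genes (5 and 8.54% without control replicate 3, 4 and 16.3% without MDM4 replicate 3), and the median log2 fold change of those tested was -0.75 to -0.38. With the paired fit (replicate block) 2 of all tested genes were called, as with a term for replicate 3, and with voom and the replicate block 27. Replicates 1 and 2 alone gave 5 chemokines and 69 genes, and the groups of 2 did not overlap in 7 of the 7 tested chemokines (8 of all 10), *CXCL16* included, beside 20.9% of all tested genes. There, dropping the filter gave 0 chemokines and 4 genes, no trend 2 and 27, pseudocount 1 gave 6 and 72, a mean of at least 1 FPKM 5 and 71, median ratio scaling 5 and 67, TPM scaling 6 and 76, quantile normalization 5 and 67, the replicate block 6 and 172, and voom 4 and 64. The direction of 5 single log2 fold changes turned, none of them called. With each library left out in turn, *CCL5* ran from -1.69 to 0.18 (0.18 without control replicate 1, 0.04 without control replicate 2) and *CXCL16* from -0.097 to 0.00086 (the latter without control replicate 1). Over replicates 1 and 2 with no filter, *CXCL5* was at 0.068 and *CXCL11* at -0.23. The causes were not tested. Depth limits *CXCL5*, *CXCL10*, *CXCL11* and *CCL5*, which rested on 0 to 86 reads.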
